A study of Mus musculus with 4 samples.

Results

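B cells and plasmablasts find their niches through G protein-coupled receptors that read gradients of chemokines, of the lipid sphingosine 1-phosphate (S1P) and of oxysterols. CXCR5 leads B cells into the follicle towards CXCL13, CCR7 leads them to the border with the T cell zone towards CCL19 and CCL21, and GPR183 (EBI2) leads them to the outer follicle towards oxysterols made from cholesterol. S1PR1 leads cells out of the tissue into blood, where S1P is high, and CXCR4 retains cells near CXCL12 and guides plasmablasts to the red pulp and bone marrow. The genes described here are 9 of the 30041 genes listed for each sample, listed by name for this role: Ccr6, Ccr7, Ccr9, Cxcr3, Cxcr4, Cxcr5, S1pr1, S1pr4 and Gpr183.

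Splenic B cells of C57BL/6 mice were cultured for 72 h with LPS, the TLR4 ligand of the bacterial outer membrane, and poly(A) RNA was sequenced in 2 control and 2 cKO samples. The labels give LPS at 20 mg/ml and the study's methods at 20 μg/ml. By the methods, control mice were Nfkbiz fl/Δ and cKO mice were Nfkbiz fl/Δ Mb1 cre/+, so that both groups carried the floxed and the deleted allele of Nfkbiz, which encodes the nuclear protein IκB-ζ, and the cKO group also carried Cre at the Cd79a (Mb1) locus, which is active in B-lineage cells. The controls carried no Cre, and neither the age of the mice nor whether samples 1 and 2 came from separate animals is stated, so p-values measure only the spread between these samples.

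The measurement is the RNA-seq score, which was deposited per gene and sample with no stated unit. Low scores multiplied by exon length lay near whole multiples of a step (75.4 to 82.1% within 0.2 of one per sample), as they would if a score were reads per exon base scaled to library size. By that inference the libraries held 17.5 to 19.9 M reads (M, mega). The score of the targeted gene Nfkbiz was 0.0241 and 0.0226 in control and 0.0127 and 0.0116 in cKO samples. The B cell label was checked against 12 B cell genes, all of which were expressed, with Ms4a1 and Cd74 among them. Of these 12 genes, Cd79a (limma adjusted p = 0.0294), where Cre was inserted, and Fcer2a (CD23, adjusted p = 0.0428) were called lower in cKO samples. None (0 of 12) was called higher, where 1.25% of the 9727 genes tested were called lower and 0.812% higher. At an unadjusted limma p under 0.05, 6 of the 12 were lower and 1 higher, against 11.5% and 10.8%. In 8 of the 12 each control sample scored higher than either cKO sample, and in 2 lower than either. Among all tested genes these shares were 30.1% and 28.1%.

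All 9 receptor genes were detected, and their scores spanned a wide range. On the score scale, which by the inference above is per exon base, the order in control samples was Ccr6 (mean 0.161), Cxcr5 (0.0932), Cxcr4 (0.0522), Ccr7 (0.0521), Gpr183 (0.0349), S1pr1 (0.0272), S1pr4 (0.0176), Ccr9 (0.00489) and Cxcr3 (0.000585). The only neighbours whose 2 control scores overlapped were Cxcr4 and Ccr7. In cKO samples Cxcr4 (0.107) stood second, above Cxcr5 (0.0794), and S1pr1 (0.0530) stood above Gpr183 (0.0345) and overlapped with Ccr7 (0.0536). Among the 9727 genes that reached a score of 0.005 in any sample, Ccr6 had a control mean above 94.7% of the genes, and Ccr9 above 4.3%. Cxcr3 did not reach that score in any sample and was left out of the main test, so that 8 of the 9 receptors were tested.

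**Figure D1:**
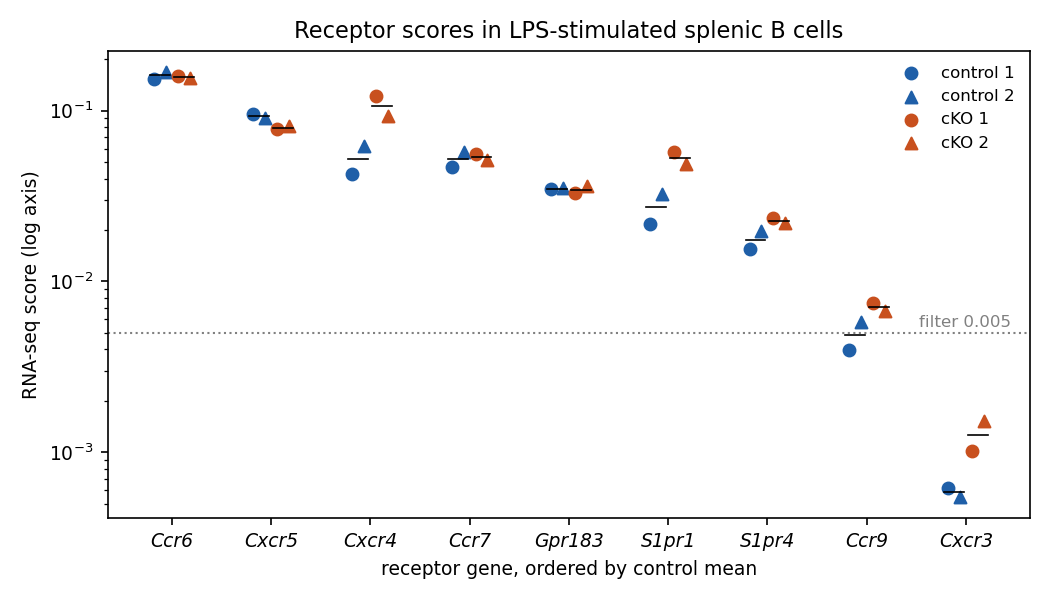
The RNA-seq score (log axis) of each of the 9 receptor genes in the 2 control and 2 cKO samples, with short black lines for the group means and a dotted line at the filter of 0.005. The cKO points of Cxcr4, S1pr1, S1pr4, Ccr9 and Cxcr3 lie above their control points and those of Cxcr5 below, and the points of Ccr6, Ccr7 and Gpr183 overlap.

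Next, control and cKO samples were compared by limma on log2(score + 0.0001), and p-values were adjusted over the 9727 genes by the Benjamini-Hochberg method. None of the 8 tested receptors (0 of 8) had an adjusted p under 0.05, where 1.25% of all tested genes were called lower and 0.812% higher. By the unadjusted p (threshold 0.05), 4 receptors were higher (Cxcr4, S1pr1, S1pr4 and Ccr9) and 1 was lower (Cxcr5), against a background of 10.8% of genes higher and 11.5% lower. Both cKO scores lay above both control scores for these 4 and below for Cxcr5, which was the case for 28.1% and 30.1% of all tested genes. With 2 samples per group, the smallest two-sided p of an exact permutation test is 0.33. The median log2 fold change was 0.21 over the 8 receptors and -0.01 over all 9727 genes. By fold alone, with no test, 1 receptor (Cxcr4) was above 2-fold and 0 were below 0.5-fold, against 1.15% and 0.864% of genes. Without control 1 and then without control 2, the log2 fold change was 0.78 and 1.31 for Cxcr4 and 0.69 and 1.27 for S1pr1. It was 0.21 and 0.54 for S1pr4, and 0.28 and 0.83 for Ccr9. The variance of these 2 fits came from the cKO pair alone, so their calls do not show which control a call depends on. Every call was lost when limma was run without cKO 1 or without cKO 2. The variance then came from the control pair alone, so this loss does not show that a call rests on both cKO samples.

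**Figure D2:**
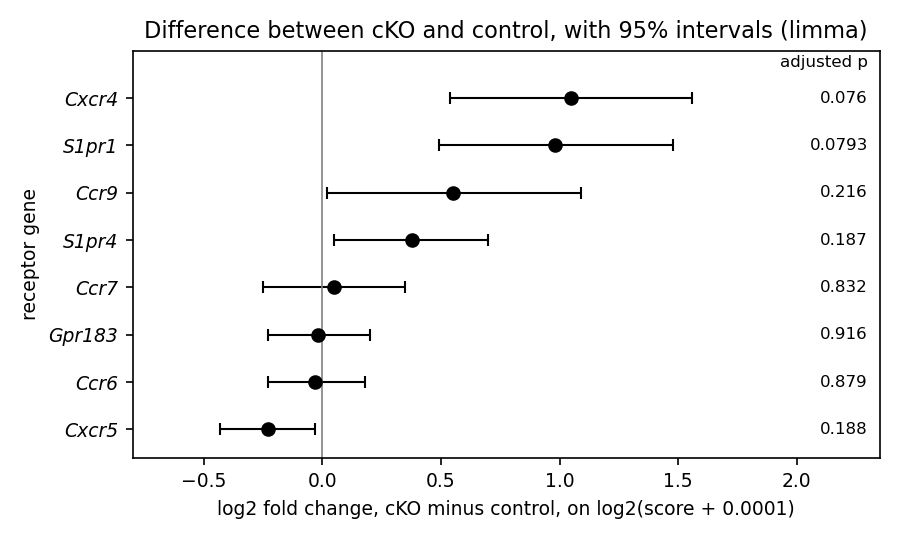
Log2 fold change of cKO minus control (points) with 95% intervals (bars) from limma for the 8 receptors past the filter, with the adjusted p at the right. The intervals of Cxcr4, S1pr1, Ccr9 and S1pr4 lie above 0 and that of Cxcr5 below it, and all adjusted p are above 0.05.

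Cxcr4, the CXCL12 receptor, had the largest difference of the tested receptors. Its score was 0.0427 and 0.0618 in control and 0.122 and 0.0929 in cKO samples, or about 1378, 2047, 4386 and 2944 inferred reads. Both cKO scores were higher than both control scores. The cKO score was 2.07-fold that of control, while the scores differed by 1.45-fold within the control pair and 1.31-fold within the cKO pair. The log2 fold change was 1.05 (standard error 0.207, 95% interval 0.54 to 1.56, limma adjusted p = 0.076). With the filter above 0.05, which leaves fewer genes, the adjusted p was 0.0426. In bulk RNA, more cells of a kind that express Cxcr4 and more Cxcr4 RNA per cell cannot be told apart, and the same holds for the other receptors.

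S1pr1, the receptor for exit towards S1P, followed closely. Its score was 0.0218 and 0.0327 in control and 0.0574 and 0.0486 in cKO samples. Control 1 was the lowest and cKO 1 the highest sample, as for Cxcr4. The cKO score was 1.98-fold that of control, just under the 2-fold mark, with a log2 fold change of 0.98 (standard error 0.201, 95% interval 0.49 to 1.48, limma adjusted p = 0.0793). Over the alternatives, with each sample left out in turn among them, the log2 fold change ran from 0.69 to 1.27 for S1pr1. For Cxcr4 it ran from 0.78 to 1.31, so the size depended on the sample. The direction could not change when a sample was left out, because both cKO scores lay above both control scores for each gene.

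S1pr4, a second S1P receptor of lymphoid cells, had scores of 0.0156 and 0.0196 in control and 0.0236 and 0.0219 in cKO samples. The groups did not overlap, and the log2 fold change was 0.38 (95% interval 0.05 to 0.70, limma adjusted p = 0.187). It was 0.21 without control 1 and 0.54 without control 2. Of the remaining S1P receptors, S1pr3, named after its values were seen, passed the filter, with scores of 0.00940 and 0.00775 in control and 0.00962 and 0.00859 in cKO samples, which overlapped. S1pr2, which holds germinal centre B cells in place, had scores of 0.00163 and 0.00172 in control and 0.00248 and 0.00201 in cKO samples, below the filter. S1pr5, a receptor known from NK cells, was listed at 0 in all 4 samples.

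Cxcr5, the follicle-homing receptor, was the only receptor with both cKO scores below both control scores. Its score was 0.0956 and 0.0908 in control and 0.0776 and 0.0811 in cKO samples. The cKO score was 0.851-fold that of control (log2 fold change -0.23, 95% interval -0.43 to -0.03, limma adjusted p = 0.188). The spread within each pair was small, at 1.05-fold in both groups. Across the alternatives the log2 fold change stayed between -0.27 and -0.16.

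Ccr9, the receptor for CCL25 that directs cells to the small intestine, was near the lower limit of the test. Its score was 0.00395 and 0.00582 in control and 0.00749 and 0.00669 in cKO samples, or about 227, 343, 480 and 377 inferred reads. Both cKO scores were above both control scores, with a log2 fold change of 0.55 (95% interval 0.02 to 1.09, limma adjusted p = 0.216). It was 0.28 without control 1 and 0.83 without control 2. Cxcr3, which binds the interferon-induced chemokines CXCL9 and CXCL10, had scores of 0.00062 and 0.00055 in control and 0.00102 and 0.00152 in cKO samples. These rest on about 19, 17, 35 and 46 inferred reads. The cKO score of Cxcr3 was 2.13-fold that of control, and with the filter lowered to 0.001 limma gave a log2 fold change of 0.98 with a standard error of 0.344 (adjusted p = 0.207).

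Ccr6, Ccr7 and Gpr183 overlapped between the groups. Ccr6, the CCL20 receptor, had scores of 0.154 and 0.168 in control and 0.160 and 0.156 in cKO samples. With a log2 fold change of -0.03, its 95% interval ran from 0.851-fold to 1.13-fold. Gpr183 had scores of 0.0347 and 0.0352 in control and 0.0330 and 0.0360 in cKO samples, with an interval from 0.851-fold to 1.15-fold. Ccr7 had scores of 0.0467 and 0.0575 in control and 0.0556 and 0.0517 in cKO samples, with an interval from 0.842-fold to 1.27-fold. A difference as large as that of Cxcr4 lies outside these 3 intervals, while differences within them were not resolved. The limma adjusted p was 0.879 for Ccr6, 0.832 for Ccr7 and 0.916 for Gpr183.

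To compare the receptors independently of the scaling between samples, ratios were taken within each sample, as a description without a test. Cxcr4 and S1pr1, whose cKO scores were higher, were set over other genes, so higher ratios largely follow from the scores above. The ratio of Cxcr4 to Cxcr5 was 0.447 and 0.680 in control and 1.57 and 1.15 in cKO samples. Thus Cxcr5 had the higher score of the pair in both control samples, and Cxcr4 in both cKO samples. The ratio of S1pr1 to Ccr7 was 0.466 and 0.569 in control and 1.03 and 0.940 in cKO samples. The ratio of Cxcr4 to S1pr1 overlapped between the groups, at 1.96 and 1.89 in control and 2.12 and 1.91 in cKO samples. Of the summed score of the 9 receptors, Cxcr4 made up 10.3 and 13.1% in control and 22.6 and 18.7% in cKO samples, while Ccr6 made up 37.0 and 35.7% and then 29.8 and 31.4%.

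**Figure D3:**
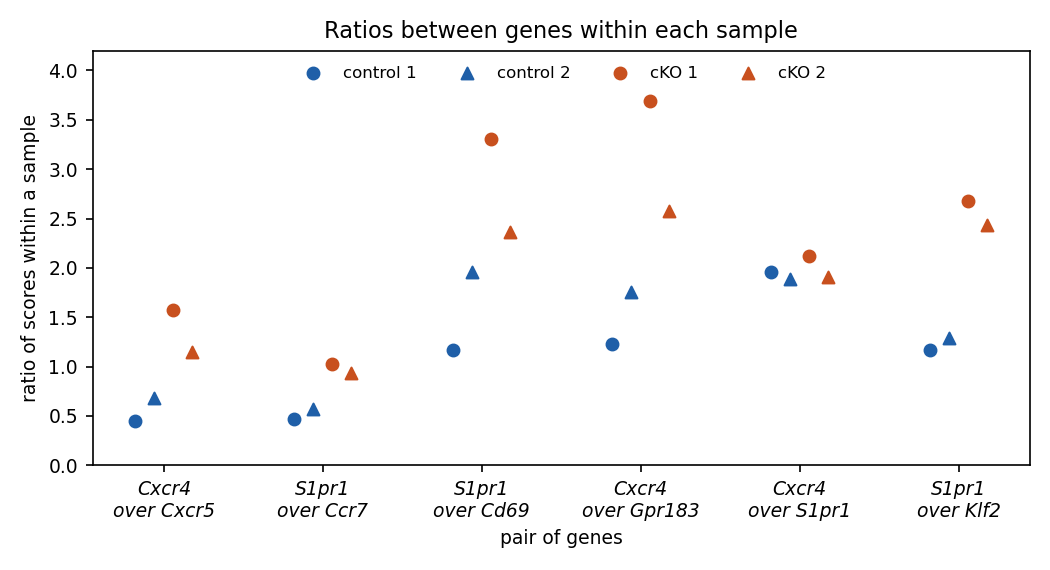
Ratios of the scores of 2 genes within each of the 2 control and 2 cKO samples (linear axis from 0), 1 point per sample. The cKO points lie above the control points for each pair shown except Cxcr4 over S1pr1, whose 4 points lie between 1.89 and 2.12. In each other pair Cxcr4 or S1pr1 stands over a gene whose groups overlapped or that was lower in cKO samples.

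The receptors were then placed on the genome. On NCBIM37, the assembly that corresponds to mm9, they lie on 8 chromosomes, with Ccr9 and Cxcr5 both on chromosome 9. Cxcr4 lies on the minus strand at chr1:130484776-130488870 and S1pr1 on the minus strand at chr3:115413351-115417973, each with 2 exon blocks in the GENCODE annotation. Cxcr5 lies on the minus strand at chr9:44319871-44334504. In 7 of the 9 receptors no other annotated gene overlaps the span. Ccr9 shares 269 exon bases of 3217 with Gm17200 on its own strand and smaller stretches with Slc6a20a (22 bases) and Gm17021 (56 bases) on the other strand, and the kit as labelled is not said to keep strand, so reads there cannot be assigned to one gene. Gpr183 lies in an intron of Ubac2, which is transcribed from the opposite strand, and shares no exon base with it.

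Promoter sequences were taken from RefSeq (GRCm38.p6), with windows matched for 6 of the 9 receptors. Those of Ccr7, Cxcr5 and S1pr1 were not analysed here. The 250 bases before the start are printed for Cxcr4, the receptor with the largest difference, for Ccr9, which lay above control with a smaller one, and for Ccr6, the receptor with the highest score and overlapping groups. The windows are chr1:128592300-128592549 on the minus strand, chr9:123766961-123767210 on the plus strand and chr17:8242276-8242525 on the plus strand, the last being the second of 2 Ccr6 entries. Capitals mark matches on either strand to a loose NF-κB motif (3 G, any 5 bases, then 2 C), to a FOXO motif (GTAAACA), to a KLF motif (CCACCC) and to the hypoxia response core (ACGTG or GCGTG). Where matches overlap or adjoin they form 1 run of capitals.
Cxcr4: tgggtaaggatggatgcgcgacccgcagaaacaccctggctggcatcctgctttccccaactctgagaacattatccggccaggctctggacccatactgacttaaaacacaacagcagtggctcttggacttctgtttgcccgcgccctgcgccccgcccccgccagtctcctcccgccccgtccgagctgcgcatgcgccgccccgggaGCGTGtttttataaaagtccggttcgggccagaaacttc
Ccr9: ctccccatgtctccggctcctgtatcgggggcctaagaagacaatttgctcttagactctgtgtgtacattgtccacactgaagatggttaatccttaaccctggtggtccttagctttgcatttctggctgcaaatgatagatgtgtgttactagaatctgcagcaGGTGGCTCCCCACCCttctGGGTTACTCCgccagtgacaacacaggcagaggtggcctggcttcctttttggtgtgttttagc
Ccr6: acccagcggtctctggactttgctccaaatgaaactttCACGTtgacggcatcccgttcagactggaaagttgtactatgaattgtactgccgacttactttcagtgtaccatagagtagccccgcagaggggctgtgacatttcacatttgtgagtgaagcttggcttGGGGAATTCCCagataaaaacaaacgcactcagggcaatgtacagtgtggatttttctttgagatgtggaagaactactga

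The Cxcr4 window holds 1 match, to GCGTG, which 28.2% of 32851 promoter windows of the same length hold. The printed Ccr6 window holds overlapping matches to the NF-κB motif, between 81 and 71 bases before the start, and 1 to ACGTG, which 16.6% of windows hold. The other Ccr6 entry, which is not printed, holds no match to any of these motifs. Its first transcribed bases matched no GENCODE transcript of Ccr6, while those of the printed entry did. The Ccr9 window holds 2 NF-κB matches and 1 KLF match, the first NF-κB match sharing a base with the KLF match. The NF-κB motif is in 45.8% of all windows and the KLF motif in 28.1%. The FOXO motif, in 3.2% of all windows, is in none of the receptor windows. These matches describe letters and do not show binding.

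Other genes of the same system were examined as lists. Of 22 further chemoattractant receptors, 4 passed the filter and 0 were called in either direction by limma. At an unadjusted p under 0.05, 2 of the 4 were lower and 0 higher, against 11.5% and 10.8% of all tested genes. The 2 lower genes were named after their values were seen. Ccbp2, a decoy receptor that takes up inflammatory CC chemokines, had scores of 0.00714 and 0.00489 in control and 0.00176 and 0.00217 in cKO samples (log2 fold change -1.55, limma adjusted p = 0.0667). Ccr1 had scores of 0.00702 and 0.00651 in control and 0.00302 and 0.00424 in cKO samples (log2 fold change -0.90, limma adjusted p = 0.105). The median log2 fold change of the 4 receptors was -0.45, against 0.21 for the 8 homing receptors described above and -0.01 for all tested genes. Ccbp2 and Ccr1 passed the filter only through control scores, which favours a negative median, so the contrast is not a result about the list. Over all 22 genes, both cKO scores lay above both control scores in 5 and below them in 6. The shares among all tested genes were 28.1% and 30.1%.

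Several ligand genes were listed at or near 0. Of 23 genes for ligands or for the enzymes that make, carry or break down S1P and oxysterols, 5 passed the filter and 0 were called. By the unadjusted p, 2 of the 5 were higher and 1 was lower, against 10.8% and 11.5% of all tested genes. Cxcl12 had a score of at most 0.00028, and Cxcl13 and Ccl20 were listed at 0 in all samples. Ch25h and Cyp7b1, which make the GPR183 ligand, had scores of at most 0.00004 and of 0. Hsd3b7, which breaks that ligand down, had scores of 0.00379 and 0.00370 in control and 0.00576 and 0.00462 in cKO samples. Sgpl1, the lyase that degrades S1P, had scores of 0.0177 and 0.0192 in control and 0.0293 and 0.0228 in cKO samples (log2 fold change 0.49, limma adjusted p = 0.132).

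Of 43 genes that transmit or control the receptor signal, 38 passed the filter, with a median log2 fold change of 0.01. Of the 38, 1 was called lower and 0 higher, against 1.25% and 0.812% of all tested genes. Rgs18, whose protein speeds up GTP hydrolysis by Gα subunits, was the gene that fell, from 0.00596 and 0.00578 to 0.00156 and 0.00205 (log2 fold change -1.66, limma adjusted p = 0.0454). Like Prdm1 and Derl3 below, Rgs18 passed the filter of 0.005 only through its control scores, which favours a lower call. Gnai2, the main Gα subunit of chemokine receptors in lymphocytes, had scores of 0.226 and 0.240 in control and 0.241 and 0.244 in cKO samples. The kinase gene Adrbk1 (GRK2), whose protein desensitises the receptors, had scores of 0.106 and 0.114 in control and 0.119 and 0.117 in cKO samples. Neither difference passed the test. Rgs1, which damps chemokine responses of B cells, stayed below the filter at 0.00066 to 0.00148.

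Regulators of S1pr1 were read beside it. Klf2, a transcription factor known to drive S1pr1, had scores of 0.0186 and 0.0254 in control and 0.0215 and 0.0200 in cKO samples. Foxo1, also named after its values were seen and known to act upstream of Klf2, had scores of 0.0241 and 0.0297 in control and 0.0319 and 0.0303 in cKO samples. Cd69, whose protein takes S1PR1 from the cell surface, had scores of 0.0186 and 0.0166 in control and 0.0174 and 0.0206 in cKO samples. The limma adjusted p was 0.817 for Klf2, 0.344 for Foxo1 and 0.633 for Cd69. The ratio of S1pr1 to Klf2 was 1.17 and 1.29 in control and 2.68 and 2.43 in cKO samples.

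Of 24 adhesion genes, 18 passed the filter, of which 0 were called lower and 1 higher, against 1.25% and 0.812% of all tested genes. Cd9, a tetraspanin of marginal zone and B-1 B cells, rose from 0.0146 and 0.0222 to 0.0468 and 0.0395 (log2 fold change 1.26, limma adjusted p = 0.0496). For each tested receptor, the gene among 65 of these lists with the most similar profile was sought, as the smallest root mean square distance of centred log2 scores over the 4 samples. For Cxcr4 it was Itga4, the α4 integrin (distance 0.0503), and for S1pr1 it was Rgs10 (0.0449). Itga4 had scores of 0.0194 and 0.0299 in control and 0.0554 and 0.0409 in cKO samples (limma adjusted p = 0.107), and Rgs10 had scores of 0.0141 and 0.0202 and then 0.0381 and 0.0327 (limma adjusted p = 0.0551). The nearest genes were Coro1a for Cxcr5 (0.0459), Arrb1 for Ccr9 (0.0390), Rasgrp2 for S1pr4 (0.0591), Rap1b for Ccr6 (0.0258), Icam2 for Ccr7 (0.0389) and Rgs19 for Gpr183 (0.0112). With 4 samples such a likeness is a description only.

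**Figure D4:**
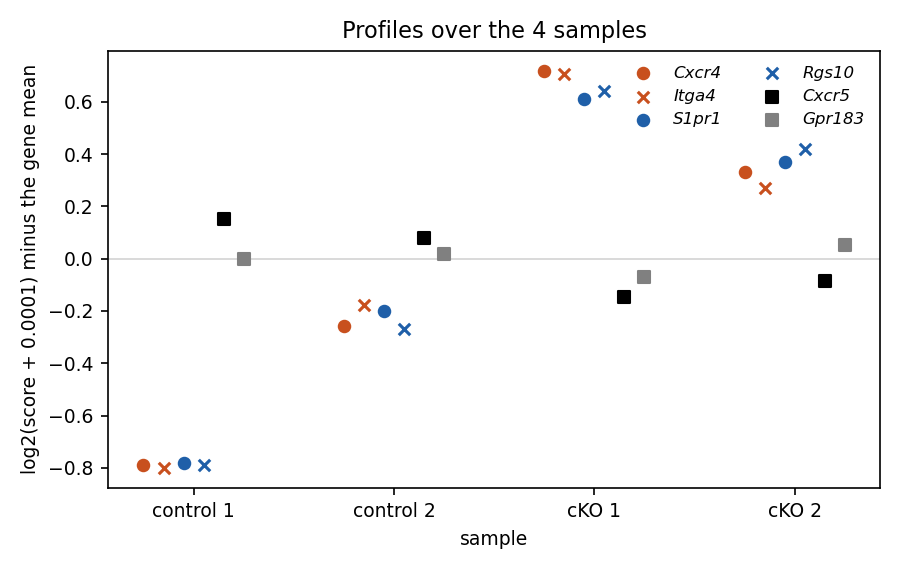
Log2(score + 0.0001) minus the gene's own mean in each of the 4 samples, for Cxcr4 and S1pr1 with their nearest genes Itga4 and Rgs10, and for Cxcr5 and Gpr183. The first 4 genes are below their mean in both control samples and above it in both cKO samples, while Cxcr5 shows the opposite and Gpr183 stays near 0.

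The plasmablast and non-B cell markers moved with the groups as follows. Of 10 plasmablast genes past the filter, 3 were called lower (Prdm1, Derl3 and Creld2) and 0 higher, against 1.25% and 0.812% of all tested genes. Prdm1 and Derl3 passed the filter of 0.005 only through control scores, which favours a lower call. By the unadjusted p, 6 of the 10 were lower and 2 higher, against 11.5% and 10.8% of all tested genes. The 2 were Sdc1 (CD138), with a log2 fold change of 0.77 (limma adjusted p = 0.116), and Slamf7, with one of 0.83 (limma adjusted p = 0.0793). Sdc1 passed the filter only through its cKO scores. Prdm1, the gene for Blimp-1, had scores of 0.00835 and 0.00458 in control and 0.00083 and 0.00075 in cKO samples. Control 1, which had the highest Prdm1 score, had the lowest scores of Cxcr4, S1pr1, S1pr4 and Ccr9, and also of Ccr6 and Ccr7. Of the 9 receptors, 7 were lower in control 1 than in control 2. Within the cKO pair, cKO 1 had the higher Prdm1 score and also the higher scores of Cxcr4, S1pr1, S1pr4 and Ccr9. The summed score of 25 T and NK cell genes was 0.0815 to 0.0947 in control and 0.127 to 0.130 in cKO samples, of which Lck, also expressed by B cells, made up 0.0318 to 0.0690. Both cKO scores lay above both control scores in 10 of the 25 genes and below them in 3, against 28.1% and 30.1% of all tested genes. Of the 25, 4 passed the filter and 15 did not exceed 0.001 in any sample. Shares among genes below the filter were not computed. Cd3e and Cd4 had scores of at most 0.00020 and 0.00006 and Gzma was at 0, while Thy1 had scores of 0.00003 in both control samples and of 0.00069 and 0.00085 in cKO samples. The summed score of 21 myeloid genes was 0.181 to 0.198 in control and 0.222 to 0.224 in cKO samples, of which Itgam, whose groups overlapped, made up 0.135 to 0.158. Of the 21 genes, 5 passed the filter. Both cKO scores lay above both control scores in 9 of the 21 and below them in 1, against the same shares of all tested genes. The 1 was Flt3, which had scores of 0.0131 and 0.0055 in control and 0.00101 and 0.002 in cKO samples. Lyz2 had scores of 0.0205 and 0.0112 in control and 0.0485 and 0.0329 in cKO samples, while C1qa was at 0 to 0.00005 and S100a9 at 0. The summed score of 12 erythroid and platelet genes was 0.00344 to 0.0150 in control and 0.00464 to 0.00575 in cKO samples. The part of the plasmablast, T and NK cell, and myeloid markers in the receptor differences was not tested.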

How the data were processed

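Splenic B cells cultured with LPS were profiled by poly(A) RNA-seq, with 2 control and 2 cKO samples grouped by their titles. Mapping by the authors was to mm9 by TopHat (TopHat2 2.0 in the submitters' processing notes, with Bowtie, SAMtools and CASAVA 1.8). They filtered reads by base quality and against rRNA and tRNA annotations (BED Tools), and deposited a score per gene. How reads became scores is not given in the sources used here. The inferred reads use exon lengths of NCBIM37 (GENCODE) and overstate the depth where the real step is larger by a whole factor.

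Genes reaching 0.005 in any sample were tested on log2(score + 0.0001) with limma 3.58.1 (R 4.3.3; a linear model and moderated variances with a mean trend), and adjusted p-values (Benjamini-Hochberg) were read at 0.05. Fold changes on this scale understate the change of low genes. Ratios are of geometric means, with 0 set to 0.00001. The fit was tested on simulated data. Tables were made in Python 3.11.15. The receptors and lists were chosen with earlier results of these data known. Named genes are the 9 receptors, Nfkbiz, Prdm1 and Cd79a, called genes of the lists, fixed direct partners of the receptors, and the nearest gene by profile. A gene named outside this rule is a marker or was chosen after its values were seen. The alternatives were other pseudocounts and filters, no variance trend, equal medians, quantile normalization, blocks for replicate number and leaving out each sample.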

Additional observations from a re-analysis of the deposited data

How the results depend on the processing

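The count of receptors called higher, 0 in the main test, was 1 with the filter above 0.05, 2 with the replicate block (Cxcr4 and S1pr1, adjusted p = 0.0206 and 0.0214), 2 with the crossed replicate block and 0 to 4 with a sample left out. The count called lower was 0 under each alternative run. Receptors above 2-fold numbered 0 to 2 with a sample left out. For all genes, lower and higher calls numbered 122 and 79, and were 0 and 0 by limma on unfiltered genes (unadjusted p under 0.05 in 1538 and 1665), 22 and 11 without the variance trend, 180 and 177 with the replicate block, 230 and 212 with the crossed block, which was chosen after the data were seen, 88 and 35 with the filter above 0.05, and 0 to 391 and 0 to 439 with a sample left out. For control 1 and cKO 1, deviations of log2 scores from the group means correlated at -0.145 (Pearson) and -0.291 (Spearman) over 9727 genes. The replicate numbers are therefore not taken as pairs. The cause of these moves was not tested, except that the filter above 0.05 tests fewer genes (1933). Of 117 values of single receptors under alternatives, 102 kept direction and side of the threshold, 10 passed it and 5 changed sign, all in receptors near 0: Ccr6 to 0.0594 with quantile normalization and 0.0403 without control 2, Ccr7 to -0.10 without control 1 and -0.00302 without cKO 1, and Gpr183 to 0.0430 without cKO 1. With a sample left out, these ranged from -0.0907 to 0.0403, from -0.10 to 0.20 and from -0.08 to 0.0430. A fit without 1 sample assumes that the lone sample varies like the other group. Depth limits Cxcr3 most, at 17 to 46 inferred reads.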

Other observations

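These genes were chosen after their values were seen. Ubac2, whose intron holds Gpr183 on the opposite strand, had scores of 0.0278 and 0.05004 in control and 0.0905 and 0.0659 in cKO samples. By limma it had a log2 fold change of 1.05 (adjusted p = 0.13), while Gpr183 had one of -0.02 (adjusted p = 0.916). Madcam1, the ligand of the α4β7 integrin on gut vessels, had scores of 0.00162 and 0.00348 in control and 0.0105 and 0.00959 in cKO samples (log2 fold change 2.03, limma adjusted p = 0.0535). Its control scores differed by 2.15-fold, and it passed the filter only through its cKO scores, which favours a higher value there. Itga6, a subunit of laminin-binding integrins, had scores of 0.00268 and 0.00222 in control and 0.00538 and 0.00399 in cKO samples (log2 fold change 0.90, limma adjusted p = 0.149). It passed the filter only through its score in cKO 1. Ppap2a, a phosphatase of S1P and related lipids, had scores of 0.0249 and 0.0230 in control and 0.0146 and 0.0168 in cKO samples (log2 fold change -0.61, standard error 0.106, limma adjusted p = 0.0535). Cd5, a marker of T cells and B-1 cells, had scores of 0.00094 and 0.00139 in control and 0.00380 and 0.00453 in cKO samples, below the filter.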
